A study of Mus musculus with 10 samples.

Results

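The endothelial marker genes are 10 genes whose products form or regulate the lining of blood vessels, namely Pecam1, Cdh5, Esam, Cldn5, Kdr, Flt1, Tek, Tie1, Egfl7 and Emcn. They were taken by symbol from the count table, which lists 24608 gene symbols, with no threshold on measured values. All 10 had at least 1 count, as did 21914 of all symbols. The libraries came from cells sorted as muscle satellite cells (MuSCs), the stem cells of skeletal muscle. The genes were followed here as markers of a cell type other than the one sorted for, and purity of the sorts was not measured here.

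MuSCs were sorted 3 days after cardiotoxin (CTX), a toxin that kills myofibers and starts regeneration, was given to the muscle. Control mice were Trpm7+/+; Pax7CreERT2/+; Rosa26YFP, and Trpm7 conditional knockout (Trpm7 cKO) mice were Trpm7 flox/flox; Pax7CreERT2/+; Rosa26YFP. Both genotypes were adult, age matched C57BL6 mice of both sexes that carried the Cre allele and received tamoxifen on 5 consecutive days. The Cre recombinase was driven by Pax7, a satellite cell gene, so recombination was directed at MuSCs and not at endothelium. Each genotype gave 5 libraries of 3000 sorted cells, and 3′-end RNA sequencing (CEL-Seq2) counted each captured RNA molecule once by its molecular identifier. The study's methods describe, for MuSCs of uninjured limb muscle, staining for CD31 (the Pecam1 product), CD45 and Sca-1 in 1 colour and collection of CD106-positive cells. For the sort of freshly isolated and activated MuSCs the study shows a gate on YFP, which marks cells in which Pax7-driven Cre has acted. Such a gate is meant to leave out unlabelled cells, endothelial cells among them. Whether the antibody stains were also used for these 10 libraries is not given in the sources used here. The sources do not say that each library came from a separate mouse, and p-values then measure only the spread between these libraries. The names of Trpm7 cKO libraries 4 and 5 share an identifying number whose meaning is not stated.

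Endothelial cells hold together through adherens junctions built on VE-cadherin and tight junctions built on claudins. They sense vascular endothelial growth factor (VEGF) through the receptors encoded by Kdr and Flt1, and angiopoietins through the receptor encoded by Tek. After CTX injury the vessels of the muscle are remodelled together with the fibers, and endothelial cells lie next to MuSCs in the tissue.

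Library totals were 914361 to 1097709 counts in control libraries and 205986 to 581121 in Trpm7 cKO libraries, so a raw count stands for a larger share of a Trpm7 cKO library than of a control library. A floor of 3 counts corresponded to 2.73 to 3.28 CPM (counts per library scaled to a common total) in control libraries and to 5.16 to 14.6 CPM in Trpm7 cKO libraries, and floors and intervals given here cover counting error only. Mitochondrial transcripts took 12.0% to 16.5% of control counts and 8.82% to 10.6% of Trpm7 cKO counts. Trpm7 itself had 67, 66, 84, 83 and 66 counts in control libraries 1 to 5 and 38, 55, 23, 28 and 10 in Trpm7 cKO libraries 1 to 5, and in CPM the groups overlapped (log2 fold change -0.09, SE 0.20, adjusted p = 0.723, edgeR's quasi-likelihood test). Because the libraries read the 3′ end and a floxed allele loses an exon, these counts do not check the genotype unless the exon is at the 3′ end. Of 13 MuSC markers, all were detected, and their summed level was 3136 to 3538 CPM in control libraries and 2482 to 3697 CPM in Trpm7 cKO libraries.

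All 10 endothelial genes had a higher mean level in Trpm7 cKO than in control libraries. Their summed raw counts were 17, 15, 6, 32 and 68 in control libraries 1 to 5 and 85, 73, 68, 243 and 137 in Trpm7 cKO libraries 1 to 5. Control library 5 was the highest control and equalled the lowest Trpm7 cKO library, so the raw sums touched. Trpm7 cKO libraries held 81.5% of the 744 counts of these genes but 29.8% of all counts. Scaled by library size with TMM factors, the control libraries had a mean of 29.9 ± 28.8 CPM (SD, n = 5) and the Trpm7 cKO libraries one of 339.7 ± 256 CPM (SD, n = 5), an 11.3-fold ratio of means. Without control library 5 the ratio was 19.2-fold, and without Trpm7 cKO libraries 4 and 5 it was 6.01-fold. No test was made on the sum. In these bulk libraries the number of cells that carry a transcript and its amount per cell cannot be told apart.

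**Figure D1:**
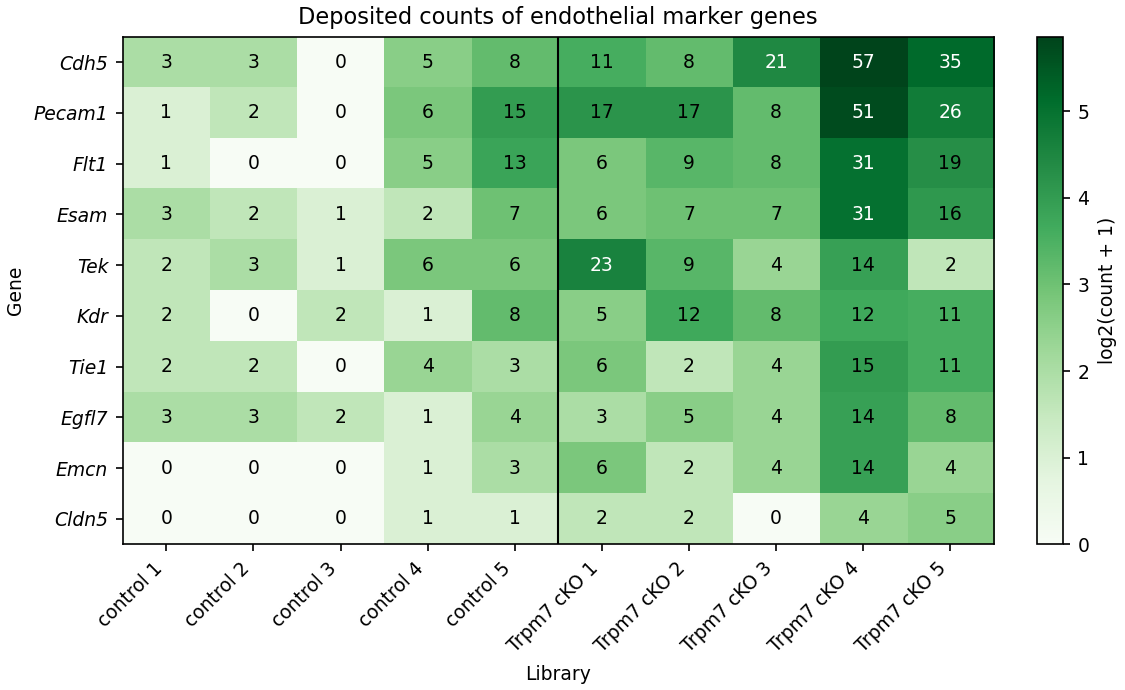
Raw counts of each of the 10 endothelial genes (rows) in each of the 10 libraries (columns), with darker cells for higher counts. Control libraries 1 to 3 hold at most 3 counts of any gene, and Trpm7 cKO library 4 reaches 57 counts of Cdh5.

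The libraries were uneven within both groups. Control library 5 held 68 of 138 control counts of these genes (49.3%) with 18.1% of the control counts of all genes. Trpm7 cKO libraries 4 and 5 held 380 of 606 Trpm7 cKO counts (62.7%) with 36.8% of the counts of all genes in that group. Control library 3 had counts of 4 of the 10 genes, control libraries 2 and 1 of 6 and 8, and control libraries 4 and 5 of all 10. Trpm7 cKO library 3 lacked Cldn5 and had the other 9, and every other Trpm7 cKO library had all 10.

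Among the adhesion and junction genes, Cdh5 and Pecam1 had the highest counts of the 10 and Cldn5 the lowest. Cdh5, on chromosome 8 (chr8:104101625-104144511, GRCm38, + strand), encodes VE-cadherin, the cadherin of endothelial adherens junctions. It had 3, 3, 0, 5 and 8 counts in control libraries 1 to 5 and 11, 8, 21, 57 and 35 in Trpm7 cKO libraries 1 to 5. The raw counts overlapped at 8, while in CPM every Trpm7 cKO library lay above every control library. The level was 4.07 ± 3.41 CPM in control and 79.9 ± 72.2 CPM in Trpm7 cKO libraries (SD, n = 5 each), and the pooled counts gave a ratio of 16.4 (exact 95% interval 10.1 to 28.0). In edgeR the log2 fold change was 4.02 (SE 0.83, adjusted p = 0.00228).

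Pecam1 (chr11:106654217-106750628, - strand) encodes CD31, an immunoglobulin-family adhesion molecule of endothelial contacts that platelets and leukocytes also carry. Its counts were 1, 2, 0, 6 and 15 in control libraries 1 to 5 and 17, 17, 8, 51 and 26 in Trpm7 cKO libraries 1 to 5. Control library 5, with 15 counts, exceeded the raw count of Trpm7 cKO library 3 but not its level in CPM. The level was 5.29 ± 7.13 CPM against 64.0 ± 50.2 CPM (SD, n = 5 each), with a pooled ratio of 11.7 (7.48 to 18.9) and an edgeR log2 fold change of 3.46 (SE 0.73, adjusted p = 0.00242). Without control library 5 the pooled ratio was 25.5, and without Trpm7 cKO libraries 4 and 5 it was 6.51.

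Esam (chr9:37528078-37538319, + strand) encodes an adhesion molecule of endothelial tight junctions that is also found on platelets. It had 3, 2, 1, 2 and 7 counts in control libraries 1 to 5 and 6, 7, 7, 31 and 16 in Trpm7 cKO libraries 1 to 5. The groups overlapped as raw counts and not in CPM, where the means were 3.25 ± 2.80 CPM and 37.8 ± 32.5 CPM (SD, n = 5 each). The pooled ratio was 10.5 (5.94 to 19.8). Cldn5 (chr16:18776847-18778262, + strand) encodes claudin-5, the main claudin of endothelial tight junctions. It was the scarcest of the 10, with 0, 0, 0, 1 and 1 counts in control libraries 1 to 5 and 2, 2, 0, 4 and 5 in Trpm7 cKO libraries 1 to 5. The groups overlapped, since Trpm7 cKO library 3 had none. With 2 control counts in all, the pooled ratio of 15.3 had an interval from 3.46 to 139.7, and the means were 0.432 ± 0.594 CPM and 8.32 ± 11.03 CPM (SD, n = 5 each).

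Kdr, Flt1, Tek and Tie1 encode receptor tyrosine kinases. Kdr (chr5:75932827-75978458, - strand), the main signalling receptor for VEGF, had 2, 0, 2, 1 and 8 counts in control libraries 1 to 5 and 5, 12, 8, 12 and 11 in Trpm7 cKO libraries 1 to 5. The Trpm7 cKO counts stayed within 5 to 12, and control library 5 lay just above Trpm7 cKO library 1 in CPM (9.26 against 9.24 CPM). The means were 2.88 ± 3.67 CPM and 28.2 ± 19.5 CPM (SD, n = 5 each), with a pooled ratio of 8.69 (4.63 to 17.5). Flt1 (chr5:147561604-147726011, - strand), on the same chromosome, encodes another VEGF receptor whose soluble form binds VEGF away from Kdr. Its counts were 1, 0, 0, 5 and 13 in control libraries 1 to 5 and 6, 9, 8, 31 and 19 in Trpm7 cKO libraries 1 to 5. Control library 5 exceeded 3 Trpm7 cKO libraries in raw counts, and Trpm7 cKO library 1 alone in CPM. The means were 4.21 ± 6.40 CPM and 42.6 ± 38.1 CPM (SD, n = 5 each), with a pooled ratio of 9.04 (5.40 to 15.9) and an edgeR log2 fold change of 3.10 (SE 0.87, adjusted p = 0.0120). Leaving out Trpm7 cKO library 4 gave 2.83 with an adjusted p of 0.0518, and leaving out libraries 4 and 5 together gave 2.03 with an adjusted p of 0.0765. Leaving out library 5 alone gave 2.71 with an adjusted p of 0.0213 (edgeR). With any 1 control library left out, the filter removed Flt1, so the fit gave it no value.

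Tek (chr4:94739289-94874976, + strand) encodes TIE2, the angiopoietin receptor, and alone among the 10 was highest in CPM in a Trpm7 cKO library other than 4 and 5. It had 2, 3, 1, 6 and 6 counts in control libraries 1 to 5 and 23, 9, 4, 14 and 2 in Trpm7 cKO libraries 1 to 5. Trpm7 cKO library 1 was the highest, and library 5 had as few counts as control library 1, although its level of 11.04 CPM still lay above the highest control of 6.95 CPM. The means were 3.83 ± 2.55 CPM and 21.6 ± 12.5 CPM (SD, n = 5 each), and the pooled ratio of 6.80 (3.91 to 12.4) was 7.44 without Trpm7 cKO libraries 4 and 5. Tie1 (chr4:118471191-118490061, - strand), an orphan receptor that acts with TIE2, had 2, 2, 0, 4 and 3 counts in control libraries 1 to 5 and 6, 2, 4, 15 and 11 in Trpm7 cKO libraries 1 to 5. Control library 4 lay above Trpm7 cKO library 2 in CPM, and the groups overlapped in raw counts too. The means were 2.31 ± 1.56 CPM and 23.0 ± 22.4 CPM (SD, n = 5 each), with a pooled ratio of 8.13 (4.07 to 17.6).

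Egfl7 (chr2:26580014-26593120, + strand) encodes a secreted protein that endothelial cells deposit in their matrix. It had 3, 3, 2, 1 and 4 counts in control libraries 1 to 5 and 3, 5, 4, 14 and 8 in Trpm7 cKO libraries 1 to 5. It was the most even gene across control libraries and overlapped between the groups as raw counts but not in CPM. The means were 2.77 ± 1.33 CPM and 19.3 ± 15.4 CPM (SD, n = 5 each), with a pooled ratio of 6.16 (3.17 to 12.7), the lowest of the 10. The span of the annotated gene Gm20532 overlaps its last exon on the same strand. None of the 31-base words in the last 500 bases of the Egfl7 transcript was shared with another gene, and sharing of counts was not tested. Emcn (chr3:137341067-137432185, + strand) encodes endomucin, a sialomucin of venous and capillary endothelium. It had 0, 0, 0, 1 and 3 counts in control libraries 1 to 5 and 6, 2, 4, 14 and 4 in Trpm7 cKO libraries 1 to 5. Control library 5 exceeded Trpm7 cKO library 2 in raw counts and not in CPM. The means were 0.895 ± 1.51 CPM and 14.9 ± 8.07 CPM (SD, n = 5 each), and the pooled ratio of 17.7 had an interval from 6.22 to 69.0.

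**Figure D2:**
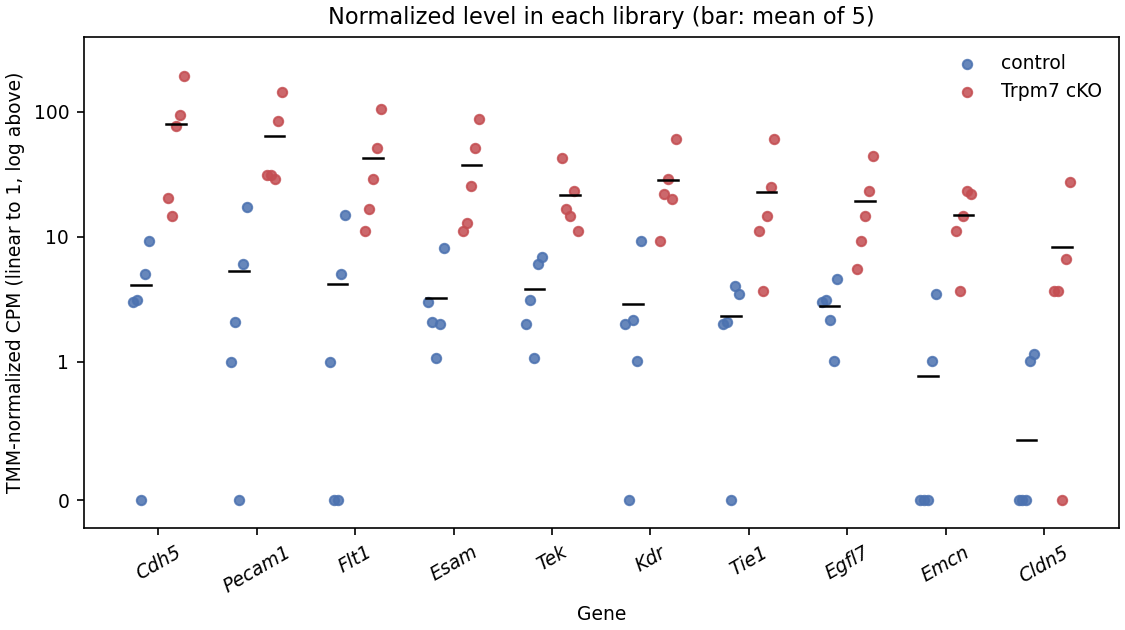
TMM-scaled CPM of the 10 endothelial genes in each library (points, one per library) with bars for the means of 5, on an axis that is linear up to 1 CPM and logarithmic above, control beside Trpm7 cKO. Cdh5 and Pecam1 reach 193 and 143.5 CPM in Trpm7 cKO library 5, where the highest control values are 9.26 and 17.4 CPM.

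Sequences upstream of the genes were read from RefSeq promoters of GRCm38.p6, in which 7 of the 10 genes have an entry; Pecam1, Cdh5 and Esam have none. The 250 bases before the RefSeq start are shown for Flt1 and Emcn, which hold the ETS-type core AGGAAG, and for Kdr, which does not, since ETS factors are known regulators of endothelial genes. Capitals mark AGGAAG or its reverse complement CTTCCT and the TATA-type motif TATAAA.
Flt1 (chr5:147726012-147726261, - strand) and the others follow 5′ to 3′.
Flt1 promoter: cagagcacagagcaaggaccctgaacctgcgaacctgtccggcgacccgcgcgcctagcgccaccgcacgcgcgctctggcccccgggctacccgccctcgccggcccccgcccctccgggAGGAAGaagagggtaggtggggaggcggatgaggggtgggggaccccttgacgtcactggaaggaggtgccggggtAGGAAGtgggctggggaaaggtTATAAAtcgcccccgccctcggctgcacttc
Emcn lies at chr3:137340828-137341077 on the + strand.
Emcn promoter: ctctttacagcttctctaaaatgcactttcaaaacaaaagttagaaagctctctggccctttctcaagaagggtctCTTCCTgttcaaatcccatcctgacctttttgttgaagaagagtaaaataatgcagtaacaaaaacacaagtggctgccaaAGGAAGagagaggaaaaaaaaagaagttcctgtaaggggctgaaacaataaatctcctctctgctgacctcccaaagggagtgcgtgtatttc
Kdr lies at chr5:75978456-75978705 on the - strand.
Kdr promoter: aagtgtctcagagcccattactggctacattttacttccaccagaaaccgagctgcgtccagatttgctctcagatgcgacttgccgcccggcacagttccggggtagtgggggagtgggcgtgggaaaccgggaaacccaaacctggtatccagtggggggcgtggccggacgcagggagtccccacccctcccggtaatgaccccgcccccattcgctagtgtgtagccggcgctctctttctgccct

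AGGAAG, searched on both strands, was present in 5 of 9 promoters of the 7 genes (in Egfl7, Emcn, Flt1 and Tie1), and in 29.5% of 32851 promoters of the same length. Flt1 and Emcn each held 2 copies. The longer form CCGGAAG and the GATA motif AGATAA were in none of the 9, against 6.91% and 9.99% of all promoters. TATAAA was in 1, that of Flt1, against 12.4%. These letters are a description of the windows and not of factor binding.

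Per gene, the difference in mean CPM was tested by an exact two-sided permutation of the genotype labels over the 10 libraries. Pecam1, Cdh5, Tek, Egfl7, Esam and Emcn reached the smallest p that 5 libraries against 5 allow, exact p = 0.00794, with an adjusted p of 0.0499 over 21914 genes. Kdr, Flt1 and Tie1 gave an exact permutation p of 0.0159 (adjusted 0.0824) and Cldn5 of 0.0476 (adjusted 0.171). All 10 genes had an unadjusted p under 0.05 with higher levels in Trpm7 cKO, where 15.7% of all genes did. Since many genes tie at the smallest p, the adjusted value of the first 6 sits at the threshold. The smallest adjusted value was 0.0506 with total counts alone, 0.0577 with scaling on MuSC markers and 0.0497 with RLE factors, and 0.0470 to 0.106 with 1 library left out.

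The 6 genes without overlap in CPM were set against 8.74% of all genes with every Trpm7 cKO library above every control library, and 14.6% of the 6012 genes with total counts in the range of these 10 (15 to 151). In raw counts, where 1.22% of all genes were free of overlap with higher counts in Trpm7 cKO, none of the 10 was. With 1 library left out at a time, 6 to 8 of the 10 were free of overlap in CPM. Counts thinned to the smallest library gave 5, namely Pecam1, Kdr, Flt1, Egfl7 and Emcn, and 1207 of all genes. Cdh5, Tek and Esam overlapped there, with exact permutation p of 0.0556, 0.135 and 0.0159 in turn. The mean was higher in Trpm7 cKO for all 10 under every scaling tried, raw counts and thinned counts among them.

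In the edgeR fit with its low-count filter, Cdh5, Pecam1 and Flt1 were tested and the other 7 were removed. The filter asked for 5 libraries above 13.4 CPM (library total alone). Cdh5 had 5 Trpm7 cKO libraries and no control library above it, Pecam1 had 5 and 1, and Flt1 had 4 and 1, control library 5. They passed mainly through the group where they were high, so their calls are not counted as support. In that fit 8.49% of 7753 genes were past both thresholds (log2 fold change above 1.5 and adjusted p below 0.05) with higher levels in Trpm7 cKO. Without the filter all 10 were past both thresholds, with log2 fold changes of 2.32 for Egfl7 to 3.81 for Cdh5, a median of 3.01, and adjusted p up to 0.0335 for Flt1 (edgeR's quasi-likelihood test), against 8.27% of all genes, 15.9% of those in the same range of counts and a median of 0.17 over all genes. In DESeq2 all 10 were past both thresholds as well, with adjusted p up to 0.0176 for Flt1, against 11.4% of genes with an adjusted p.

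**Figure D3:**
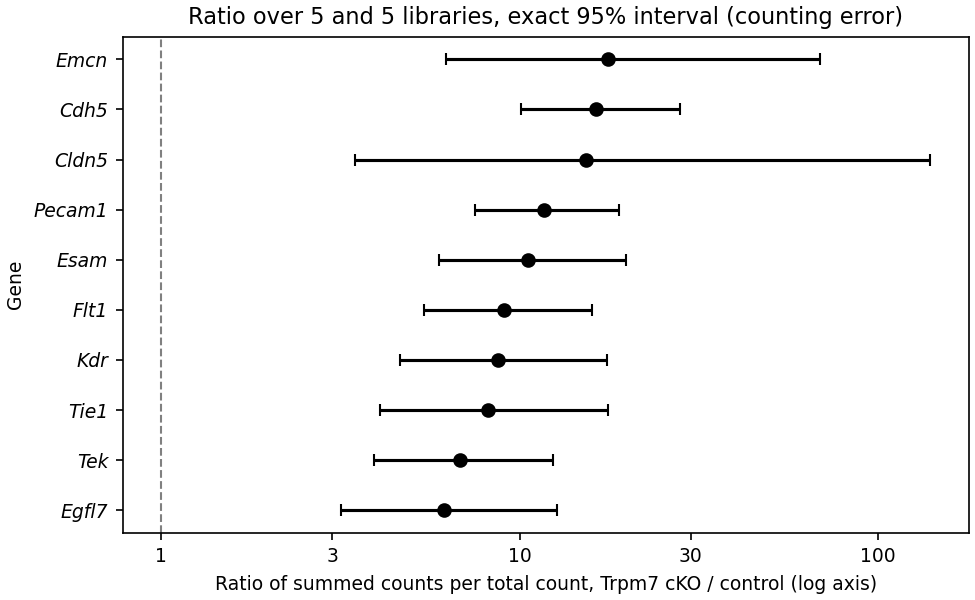
Ratio of pooled counts per library total, Trpm7 cKO over control, for each gene on a log axis, with exact 95% intervals for counting error only. The ratios run from 6.16 for Egfl7 to 17.7 for Emcn, and the widest interval is that of Cldn5.

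Which libraries were pooled moved these ratios. Without control library 5 they ran from 7.28 for Egfl7 to 57.8 for Emcn, and those of Pecam1 (25.5), Kdr (18.5), Flt1 (23.4), Esam (16.1), Cldn5 (25.0) and Emcn changed by over 1.5 times. Without Trpm7 cKO libraries 4 and 5 they ran from 3.44 for Egfl7 to 11.2 for Emcn, and that of Cdh5 was 7.84, of Esam 4.96, of Flt1 4.51 and of Tie1 4.06. Tek (7.44) and Kdr (7.16) changed by less than 1.5 times without libraries 4 and 5.

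Because CEL-Seq2 counts 1 tag per molecule at the 3′ end, levels can be set side by side between genes without a correction for length. In control libraries the order of mean CPM was Pecam1, Flt1, Cdh5, Tek, Esam, Kdr, Egfl7, Tie1, Emcn and Cldn5, from 5.29 to 0.432 CPM. In Trpm7 cKO libraries it was Cdh5, Pecam1, Flt1, Esam, Kdr, Tie1, Tek, Egfl7, Emcn and Cldn5, from 79.9 to 8.32 CPM. Within libraries, the mean difference between neighbours exceeded its SD only for Tie1 over Emcn in control libraries (1.41 ± 1.35 CPM, SD, n = 5) and for Pecam1 over Flt1 in Trpm7 cKO libraries (21.4 ± 15.3 CPM, SD, n = 5). Flt1 was the second gene in control libraries through library 5 (15.1 CPM), with 0 to 5.02 CPM in the others.

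The make-up of the endothelial counts differed between Trpm7 cKO libraries. Tek was 27.1% of them in library 1 (exact 95% interval 18.0% to 37.8%) and 1.46% in library 5 (0.177% to 5.17%), and these intervals do not overlap. Cdh5 was 10.96% in library 2 (4.85% to 20.5%) and 30.9% in library 3 (20.2% to 43.3%). In pooled control libraries Tek was 13.0% (7.92% to 19.8%) and Cdh5 13.8% (8.50% to 20.7%), beside 8.58% (6.47% to 11.1%) and 21.8% (18.6% to 25.3%) in pooled Trpm7 cKO libraries. No test of these shares between the genotypes was made.

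**Figure D4:**
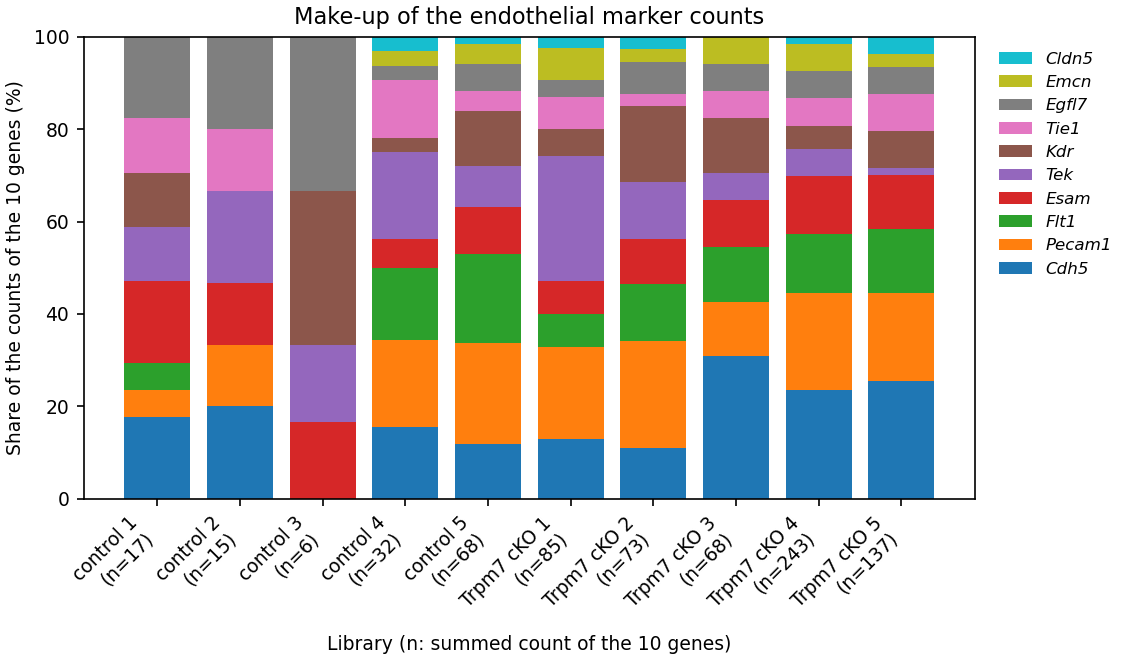
Share of the endothelial counts (percent) taken by each gene in each library, with the number of counts given for each library. Tek takes 27.1% in Trpm7 cKO library 1 and 1.46% in library 5.

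Other endothelial genes, a list of 44 that all had counts, showed higher mean CPM in Trpm7 cKO libraries for 43. In the filtered edgeR fit 12 were tested, 8 were past both thresholds with higher levels and none with lower. Of the 12, 2 (Eng and Mmrn2) had no control library above the 13.4 CPM of the filter, and Ly6c1 and S1pr1 had 1 each. All of these passed mainly through the group where they were high, so their calls are not counted as support. Without the filter 26 of 44 were past both thresholds with higher levels and none with lower, where 8.27% of all genes were higher. In CPM 15 of 44 had no overlap, where 8.74% of all genes had every Trpm7 cKO library above every control library. The median log2 fold change without the filter was 2.50, beside the 0.17 of all genes. The list's Nos3, Flt4, Gja5, Sele and Notch4 were at 0 in all control libraries. Fabp4, a fatty acid carrier of capillary endothelium and also of adipocytes and macrophages, had a log2 fold change of 3.45 (adjusted p = 0.000765). Eng, a co-receptor for transforming growth factor beta, had 3.77 (adjusted p = 9.85e-07). Cd93, which myeloid cells also express, had 3.25 (adjusted p = 8.93e-06), and Mmrn2, whose product is a CD93 ligand of the vessel matrix, had 3.03 (adjusted p = 1.4e-05). The other called genes were Ly6c1 (2.30, adjusted p = 0.000538), also found on monocytes, and S1pr1 (2.18, adjusted p = 0.00314), a sphingosine 1-phosphate receptor. Prox1 (1.55, adjusted p = 0.000139), the lymphatic regulator that MuSCs also express, and Aqp1 (1.53, adjusted p = 0.0299), a water channel also found on erythrocytes, lay just past the fold threshold, and without the filter had 1.34 and 1.32, short of it.

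Of the most abundant members of that list, 3 did not pass both thresholds. Cav1, which encodes caveolin-1 and is widely expressed, was the highest at 392 ± 29.0 CPM in control and 504 ± 116 CPM in Trpm7 cKO libraries (log2 fold change 0.38, adjusted p = 0.0430). Nr2f2, a venous regulator also expressed in mesenchymal cells, had a log2 fold change of -0.29 (adjusted p = 0.172). Ramp2, the adrenomedullin receptor partner, had a log2 fold change of 1.47 (adjusted p = 7.05e-05), short of the fold threshold.

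Ligands and co-receptors of the same pathways were counted by the same thresholds, past which 8.49% of all genes tested with the filter were higher. Of 16, all with counts and with a median log2 fold change of 0.73 without the filter, 7 were tested and 2 were past both thresholds, namely Plxnd1 (log2 fold change 2.17, adjusted p = 4.1e-06), a semaphorin receptor, and Jag1 (1.64, adjusted p = 9.38e-05, and 1.44 without the filter), a Notch ligand. Without the filter 3 of the 16 were past both thresholds, all with higher levels. They were Plxnd1 and 2 scarce ligand genes, Pgf (log2 fold change 2.86, adjusted p = 0.00100) and Dll4 (3.03, adjusted p = 0.00681, edgeR). Pgf had 4 counts in control and 18 in Trpm7 cKO libraries, and Dll4 had 2 and 11. In that fit 8.27% of all genes were higher, and 15.9% of those in the count range of the 10 endothelial genes. Vegfa, the ligand of Kdr and Flt1, had 112 ± 10.5 CPM in control and 123 ± 32.9 CPM in Trpm7 cKO libraries (log2 fold change 0.08, SE 0.18, adjusted p = 0.729). Vegfb, a ligand of Flt1, was below the fold threshold with a negative sign (log2 fold change -0.96, adjusted p = 0.00486). The VEGF co-receptor gene Nrp1 had a log2 fold change of 0.86 (adjusted p = 0.00565) and Nrp2 of -0.03 (adjusted p = 0.944), and Hey1, a Notch target, had 0.92 (adjusted p = 0.0104). Apln, a ligand of the apelin receptor, was not tested and had 12.9 ± 3.22 CPM and 20.7 ± 32.9 CPM (SD, n = 5 each), with 48 counts in Trpm7 cKO library 4 and 1 to 3 in the other Trpm7 cKO libraries.

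Junction partners that endothelium shares with other tissues were counted likewise. Of 13, all with counts and with a median log2 fold change of 0.55 without the filter, 9 were tested, and Jup, encoding plakoglobin (log2 fold change 1.98, adjusted p = 7.46e-06), and Afdn, encoding afadin (1.88, adjusted p = 7.18e-06), were past both thresholds. Ctnna1, encoding the alpha-catenin that links cadherins to actin, had a log2 fold change of -0.98 (adjusted p = 4.87e-05), and Jam3 of -0.65 (adjusted p = 0.0337). Ctnnd1 (0.05, adjusted p = 0.801), Tjp1 (0.27, adjusted p = 0.373) and Ctnnb1 (0.57, adjusted p = 0.0873) did not pass the test.

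Markers of other cell types of muscle moved with the same groups of libraries, and their part in the endothelial result was not tested. Beside the counts of called markers that follow, 8.27% of all genes were called higher without the filter and 8.49% of those tested with it. Of 28 leukocyte markers with a count (30 listed), 24 were past both thresholds with higher levels in Trpm7 cKO without the filter and none with lower. The filter kept 17, all called higher, of which 5 had no control library above its 13.4 CPM and 5 had all control libraries above it. The sum over the list was 280.1 to 459.6 CPM in control and 1235 to 5198 CPM in Trpm7 cKO libraries. Platelet markers, 6 with a count of 10 listed, summed to 15.1 to 34.7 CPM and 153 to 398 CPM, with 2 called higher without the filter and Pf4 the 1 tested with it (log2 fold change 3.53, adjusted p = 2.13e-07). The lymphocyte and dendritic cell markers Cd3e, Cd79a, Nkg7 and Flt3 and the platelet markers Ppbp and Clec1b were at 0 in all control libraries, and no marker with a count was at 0 in all Trpm7 cKO libraries. Of 10 mural markers, 6 were called higher without the filter, 4 were tested with it and 2 of these, Tagln and Rgs5, were called, with sums of 613 to 963 CPM and 1641 to 2159 CPM. Of 10 fibroadipogenic markers, 7 were called higher without the filter, 5 were tested with it and 4 of these were called, with sums of 989 to 2048 CPM and 1593 to 3895 CPM that overlapped between the groups.

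Erythroid markers, 4 in the table of 5 listed, were at 1.99 to 23.8 CPM in control libraries 1 to 4, at 178 CPM in control library 5 and at 146 to 3274 CPM in Trpm7 cKO libraries, so the control library with most endothelial counts also had most globin counts. All 4 were called higher without the filter. The 5 Schwann markers summed to 1.03 to 2.32 CPM in control and 1.84 to 132 CPM in Trpm7 cKO libraries, with 3 called higher without the filter and none tested with it. Of the genes whose products were used in the study's staining, Ptprc (CD45) had a log2 fold change of 2.84 (adjusted p = 6.27e-06), Ly6a (Sca-1) of 2.21 (adjusted p = 0.00970) and Vcam1 (CD106) of 0.21 (adjusted p = 0.284), beside the 3.46 of Pecam1. Of 13 MuSC markers, 11 were tested, 1 was called higher (Chrdl2) and 1 lower (Myod1). Chrdl2 had no control library above the CPM of the filter. At an adjusted p below 0.05 alone 5 were higher and 3 lower (edgeR), so the summed level covers opposite changes. Mean CPM in control and Trpm7 cKO libraries was 206 and 474 for Pax7 and 744 and 181 for Myod1. Pax7, Chrdl2, Myod1, Pf4, Tagln, Rgs5, Pgf and Dll4 were named after their values were seen.

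**Figure D5:**
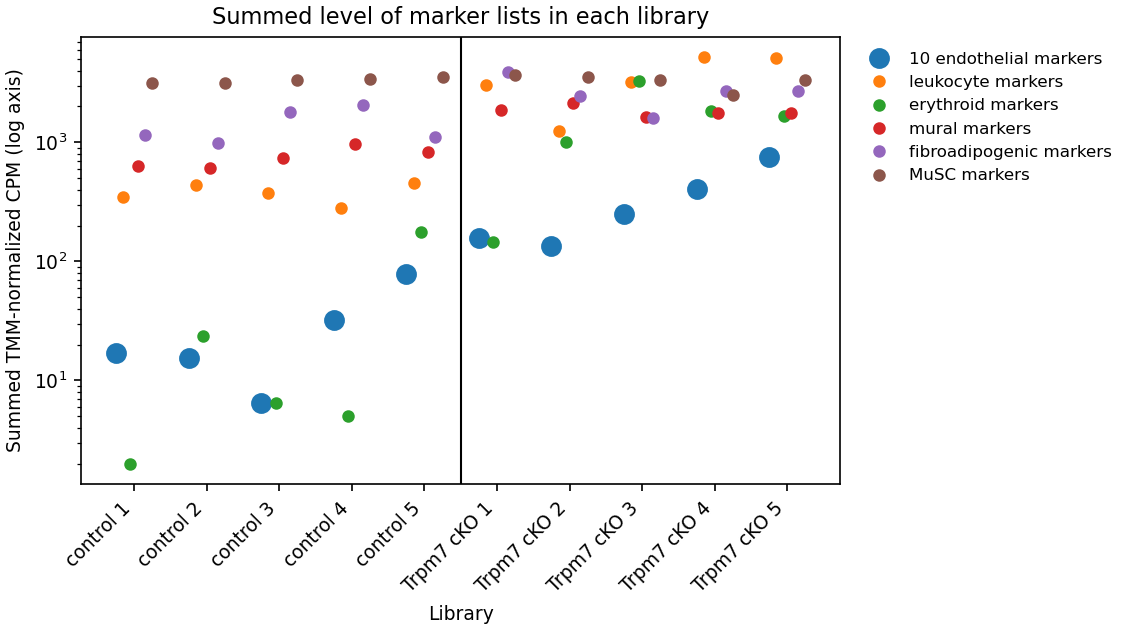
Summed TMM-scaled CPM of the endothelial genes and of other cell type marker lists in each library, on a log axis. The endothelial sum is 6.43 to 78.7 CPM in control libraries and 134 to 756 CPM in Trpm7 cKO libraries, while the MuSC marker sum stays between 2482 and 3697 CPM. Single MuSC markers moved both ways within that sum.

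Genes whose log2 CPM ran most like that of the summed endothelial genes over the 10 libraries were Trafd1 (Pearson r = 0.97), Cd36, Msr1, Arl6ip6 and Itpr2 (r = 0.97 for each of the last 4). After the genotype means were subtracted they were Trafd1 (r = 0.90), Mbd5 (r = 0.90), B130021K23Rik (r = 0.89), Nradd (r = 0.89) and Arl6ip6 (r = 0.88). These are descriptions over 10 libraries that share depth and genotype, among 7681 genes, with no p.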

How the data were processed

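CEL-Seq2 libraries of 5 control and 5 Trpm7 cKO samples were analysed from the whole-number counts per gene that the authors deposited in 1 table. Per the submitters' processing notes the tools were UMI-tools 1.1.4, Trim Galore 0.6.10, HISAT2 2.2.1, featureCounts 2.0.6 and DESeq2 1.30.1, with GRCm38, and replicates were not pooled. Which annotation was counted, and whether strand was used, is not given in the sources used here, so antisense and overlapping genes may share counts. Of 24620 entries, 12 repeated a symbol and the entry with the larger total was kept, leaving 24608.

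The genotypes were compared with edgeR 4.0.16 (R 4.3.3, limma 3.58.1) by the quasi-likelihood F test with robust dispersion, TMM factors and a low-count filter (minimum count 10, minimum total 15), which left 7753 genes. Benjamini-Hochberg adjustment ran over all genes tested, and a gene was called at a log2 fold change beyond 1.5 with an adjusted p below 0.05. The members removed by the filter were tested by an exact two-sided permutation of mean CPM over all splits of 5 against 5, adjusted over the 21914 genes with a count, for which the smallest p is 0.00794. Pooled count ratios have exact 95% binomial intervals. Gene positions came from GENCODE on GRCm38, where 23986 of the 24608 symbols were found, and none of the 31-base words in the last 500 transcript bases of the 10 genes was shared with another gene. The edgeR fit with TMM factors and the low-count filter was tested on simulated counts, in which only genes with larger total counts were changed. The other fits were not tested in this way. DESeq2 1.42.0, limma-voom, other scalings and filters, thinned counts, the replicate number as a block and each library left out were the alternatives.

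The members and gene lists were chosen with earlier results of these data known. Named were all 10 members, the staining genes, called genes of the other endothelial list, at most the 8 most abundant genes of that list and of the lists of ligands and co-receptors and of junction partners, and the 5 genes most like the summed members, each way. Of the listed symbols, Ly6g, Ms4a1, Gp1bb, Gp6 and Alas2 were not found in the table, and some genes of the lists are not reported here. Replicate libraries of 1 genotype differed beyond counting noise, so all were kept as separate samples.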

Additional observations from a re-analysis of the deposited data

Results flagged for a closer look

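In all, 22 sets of 5 libraries were examined for a library that stood apart by Dixon's ratio (critical value 0.71). Of these, 4 were flagged, and 3 of the 4 concerned control library 5. The chance rate of about 1 in 20 for that critical value holds for independent normal values. These sets are low counts with ties at 0 from the same libraries, so their chance rate is not known. Kdr was at 9.26 CPM in control library 5 and at 0 to 2.14 CPM in the other controls. Esam was at 8.10 CPM there and at 1.07 to 2.98 CPM in the other controls. Emcn was at 3.47 CPM there and at 0 to 1.00 CPM in the other controls, which is 3 counts against at most 1. Cldn5 was at 27.6 CPM in Trpm7 cKO library 5, from 5 counts in the smallest library, and at 0 to 6.63 CPM in the other Trpm7 cKO libraries. The pooled ratio of Kdr was 8.69 with all libraries and 18.5 without control library 5, that of Esam was 10.5 and 16.1, and that of Emcn was 17.7 and 57.8.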

How the results depend on the processing

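All 10 genes kept a higher mean in Trpm7 cKO libraries under every alternative, and the cause of the changes below was not tested. The number past both thresholds in edgeR was 3 of 3 tested with the filter, and 10 without it, 10 in DESeq2, 6 with a minimum count of 5, 5 with Trpm7 cKO libraries 4 and 5 summed, 0 with counts thinned to the smallest library, where the filter removed all 10, and 3 to 6 with 1 library left out. The number with an adjusted exact permutation p below 0.05 was 6, and 0 to 8 with 1 library left out. It was 0 with total counts alone, scaling on MuSC markers, thinned counts or raw counts. Leaving out Trpm7 cKO libraries 4 and 5 together (an alternative chosen after seeing the data) also gave 0. Apart from raw counts (smallest adjusted p over all genes 0.0347), no gene at all passed in these settings. Their smallest adjusted exact permutation p was 0.0506 with total counts alone, 0.0577 with MuSC scaling, 0.0870 with thinned counts and 0.0860 without libraries 4 and 5. Each 0 with 1 library left out also came where that smallest value lay above 0.05. Those 0s are thus not particular to the members. The number without overlap was 6 to 8 with 1 library left out and 0 in raw counts. Of 21914 genes, 1960 to 2330 and 267 in turn were without overlap and higher in Trpm7 cKO. Log2 fold changes were 2.89 to 4.52 for Cdh5 and 2.54 to 4.56 for Pecam1 over 20 alternatives each, and 2.03 to 3.73 for Flt1 over 15, which leave out the 5 fits without a control library, where the filter removed it, with largest adjusted p of 0.0281, 0.0133 and 0.0765 (edgeR, limma or DESeq2).

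Over all genes, 658 were called higher and 274 lower in Trpm7 cKO. These counts were 1813 and 623 without the filter, 1589 and 440 in DESeq2, and 306 and 146 with thinned counts. The lower count was 416 without Trpm7 cKO library 4 and 432 without libraries 4 and 5. With total counts alone, the all-gene median (log2) was 0.10 in place of -0.01.

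The replicate numbers showed no sign of pairing the samples, and what they stand for is not stated in the sources used here. Same-numbered libraries correlated at -0.04, -0.12, -0.07, 0.06 and 0.18 in their deviations, and 1 of 5 correlated best with its own number. With the replicate block, edgeR called 3 members, and 645 genes higher and 294 lower. In the exact test, the 32 sign changes under the replicate block allow no p below 0.0625, so 0 members could pass.

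Depth is 1 limit, since control libraries held at most 15 counts of any of these genes and a single count is worth more CPM in the smaller Trpm7 cKO libraries.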
